A study of Homo sapiens with 6 samples.

Results

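Translation initiation factors are the proteins that bring an mRNA, the initiator tRNA and the ribosomal subunits together at a start codon, and the genes described here are the protein-coding genes whose symbols begin with EIF and a digit, with the EIF2AK kinases left out. In the table of 18278 genes, 50 genes met that rule by their GENCODE release 29 symbols, and all 50 had a mean of at least 10 normalized reads and were tested. EIF1AY and EIF4E1B, which the annotation also holds, were not analysed here. RNA came from Toledo, an established human line from a diffuse large B cell lymphoma that grows in suspension. In 1 group of 3 samples the cells received TP-064 at 5 uM, a small molecule that inhibits the arginine methyltransferase CARM1, and in the other 3 samples DMSO, with 6 days in both. Polyadenylated RNA was sequenced from stranded libraries, and 41354131 to 48360867 reads per library were assigned to listed genes. Whether the replicates are separate cultures is not stated in the labels. The p-values cover only the spread among these 6 libraries, part of which may be technical. The study is about lymphomas with mutations of the acetyltransferases CREBBP and EP300, and the comparison asks which mRNAs differ after prolonged inhibition of CARM1.

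In the main pathway of initiation, eIF4E binds the cap of the mRNA, the scaffold eIF4G joins it to the helicase eIF4A, and eIF3 links this assembly to the small ribosomal subunit. The GTPase eIF2 carries the initiator tRNA, eIF1 and eIF1A hold the subunit in a scanning state, and eIF5 and eIF5B drive the later steps of GTP hydrolysis and subunit joining. Proliferating B cells and lymphomas depend on a high rate of protein synthesis, and mTOR signalling controls the cap-binding step through the eIF4E-binding proteins.

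All 5 B cell markers examined (MS4A1, CD79A, CD79B, PAX5 and CD74) were present, with a summed level of 191707 to 207870.4 normalized reads after TP-064 and 177857 to 182817 after DMSO. CD74 made up most of that sum, and the markers did not move together. MS4A1 had 18334 to 20504 normalized reads after TP-064 and 9853 to 10921 after DMSO, while CD79A had 7305 to 8311 normalized reads after TP-064 and 11147 to 12361 after DMSO and CD79B 35114 to 39095 normalized reads after TP-064 and 45367 to 46348 after DMSO, lower in every treated sample. Of the markers of other cell types, CD14 and CSF1R of the myeloid list summed to 53.4 to 81.2 normalized reads after TP-064 and 17.3 to 39.8 after DMSO. The markers went opposite ways: CSF1R had 49.5 to 75.2 normalized reads after TP-064 and 6.49 to 18.9 after DMSO, and CD14 had 3.96 to 8.74 normalized reads after TP-064 and 10.8 to 20.9 after DMSO. In the stromal list, COL1A1 and PDGFRB summed to 140.1 to 147 normalized reads after TP-064 and 298 to 327 after DMSO. The other 2 myeloid markers, the other stromal marker and the T cell and epithelial markers were not analysed here. The part of such cells in the results was not tested. In bulk RNA, fewer cells of a type and less RNA per cell cannot be told apart. TP-064 replicate 3 stood apart in antisense reads: over 270 antisense genes that overlap an abundant gene, the median read count was 0.699% of that gene's count, against 0.0764% to 0.115% in the other 5 libraries. Counts of factor genes are therefore given with and without that library.

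More initiation factor mRNAs fell than rose after TP-064, and most changes were small. A gene was called at a limma adjusted p under 0.05, and 29 of the 50 factor genes fell, 8 rose and 13 did not pass. That share, 74% called, stands beside 65.1% of all 16048 tested genes, of which 33.3% fell and 31.9% rose. Among the factor genes 58% fell and 16% rose. Without TP-064 replicate 3 the counts were 28 lower and 7 higher. The groups did not overlap for 38 factor genes, against 69.1% of all tested genes. The median log2 fold change of the factor genes was -0.22, and that of all tested genes was 0.0079.

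Abundant genes fell more often as a whole, so the factor genes were also set beside genes above a floor of abundance. Levels above that floor were not matched. Of the 7178 tested genes with a mean of at least 1000 normalized reads, 47.4% fell and 33% rose, with a median of -0.0720. The 40 factor genes in that range included 23 that fell (57.5%) and 8 that rose (20%), with a median of -0.21. When a change had to exceed 1.2-fold to be called, 17 factor genes passed, 16 lower and 1 higher. Of all tested genes 34.8% passed that stricter test, 18.1% lower and 16.7% higher. Scaling to library size alone shifted the median of all genes to 0.13, and the factor genes then had 26 lower and 15 higher calls with a median of -0.0987. Under that scaling 25.9% of all tested genes were lower and 41.5% higher. Summed over the 50 genes, factor mRNAs came to 592600.4 ± 7824 normalized reads in DMSO and to a lower 559439 ± 14133 with TP-064 (SD, n = 3 for both). The totals over all genes were also lower with TP-064, and as a share of them these mRNAs made up 1.29% to 1.32% of normalized reads after TP-064 and 1.27% to 1.28% after DMSO. By role, the mean share of helicases and their activators went from 0.270% in DMSO to 0.343% with TP-064. That of the eIF3 complex went from 0.457% to 0.475%, and that of the cap-binding inhibitors from 0.0191% to 0.0207%. The shares of the other roles were lower with TP-064. The sum of the helicases and their activators went from 125643 normalized reads in DMSO to 146323 with TP-064. In it, EIF4A3 alone went from a mean of 16612 to 33847. Of the 5 genes of that role 2 were called higher and 2 lower. The shares of that role and of the family without EIF4A3 were not determined.

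**Figure D1:**
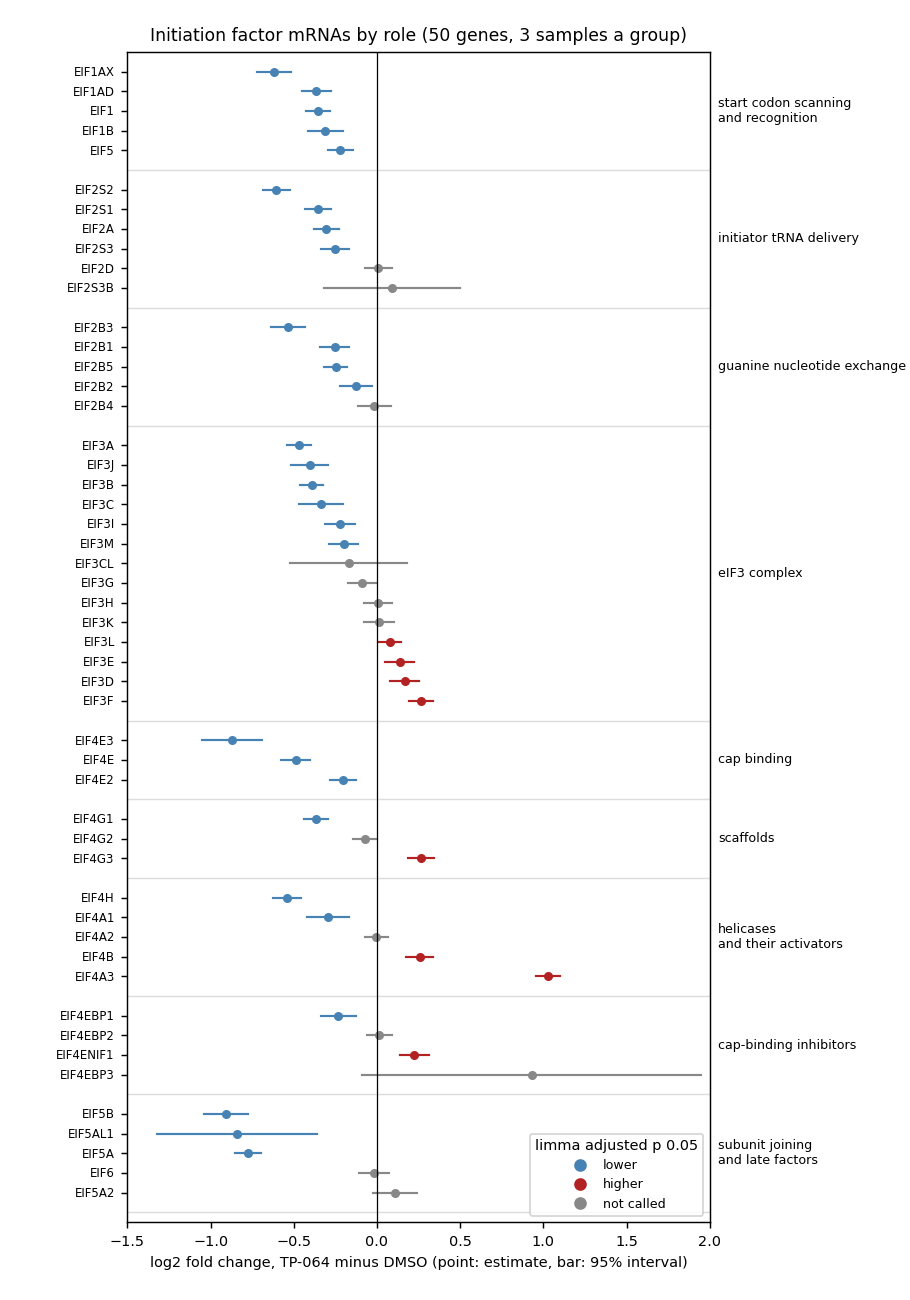
Log2 fold change of each of the 50 factor genes (horizontal axis, TP-064 minus DMSO, 3 samples a group), grouped by role, with its 95% confidence interval. EIF4A3 lies at 1.03, far to the right of the other called genes, and the genes of start codon recognition all lie to the left of 0.

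Genes of start codon scanning and recognition all fell, 5 of 5, beside 33.3% of all tested genes, and did so under each scaling tried. EIF1AX encodes eIF1A, which holds the scanning complex open. It had 6289.8, 7233 and 7109.9 normalized reads in the TP-064 samples and 10332, 10851 and 10427 in the DMSO samples. Every treated sample lay below every control, and the gene fell by 0.62 on the log2 scale (SE 0.047, limma adjusted p = 2.07e-08). It lies on chromosome X from 20124518 to 20141844 on the minus strand of GRCh38. EIF1, whose product guards against initiation at wrong codons, had 11122, 11049 and 10775 normalized reads in the TP-064 samples and 13771, 13835 and 14502 in the DMSO samples. Its related gene EIF1B, at a lower count, had 759, 761 and 753 normalized reads in the TP-064 samples and 915, 953 and 949.5 in the DMSO samples. Both sets of samples were separate, and EIF1 fell by 0.35 (SE 0.034) and EIF1B by 0.31 (SE 0.05). The ratio of EIF1B to EIF1 overlapped between the groups, with a difference of 0.0438 on the log2 scale. EIF1AD, a protein with an eIF1A-like domain, fell by 0.36, and EIF5, the factor that activates GTP hydrolysis by eIF2, fell by 0.22.

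The genes that deliver the initiator tRNA fell in 4 of 6 cases (66.7%, beside 33.3% of all tested genes) and none rose. The eIF2 complex has alpha, beta and gamma subunits, encoded by EIF2S1, EIF2S2 and EIF2S3. The beta subunit gene EIF2S2 had the largest fall of the group, with 8275, 8957 and 8398 normalized reads in the TP-064 samples and 12828, 13209 and 12905 in the DMSO samples. The treated samples were all lower, by 0.60 on the log2 scale (SE 0.037, limma adjusted p = 1.42e-09). EIF2S1, the subunit that stress kinases phosphorylate, fell by 0.35 (SE 0.037), and EIF2S3, the GTP-binding subunit, by 0.25 (SE 0.04). EIF2A, an alternative carrier of initiator tRNA, fell by 0.31. EIF2D, which acts in ribosome recycling and in alternative initiation, had 3516, 3652 and 3459 normalized reads in the TP-064 samples and 3481, 3459 and 3623 in the DMSO samples. These samples overlapped, and its interval ran from -0.0716 to 0.0891, although with library size scaling it passed as higher at 0.13. EIF2S3B, a near-identical copy of EIF2S3 whose reads are uncertain, was not called at 0.0887.

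Exchange of GDP for GTP on eIF2 is done by eIF2B, and 4 of its 5 subunit genes fell (80%, beside 33.3% of all tested genes). EIF2B3, the gamma subunit of the catalytic part, had 1369, 1528 and 1382 normalized reads in the TP-064 samples and 2054, 2104 and 2032 in the DMSO samples. The groups were separate, and the gene fell by 0.53 (SE 0.048, limma adjusted p = 1.33e-07). EIF2B5, the catalytic epsilon subunit, fell by 0.25, and EIF2B1, of the regulatory part, by 0.25. EIF2B2 passed narrowly at -0.12 (limma adjusted p = 0.0255). It lost its call without TP-064 replicate 3 (-0.0778), DMSO replicate 1 (-0.11) or DMSO replicate 2 (-0.12), and under TMM scaling (-0.0954), edgeR with TMM (-0.0938) and library size scaling (-0.000894). EIF2B4, the delta subunit, had 2385, 2163 and 2188 normalized reads in the TP-064 samples and 2249, 2182 and 2374 in the DMSO samples. Its samples overlapped, with an interval of the log2 fold change from -0.12 to 0.0865.

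**Figure D2:**
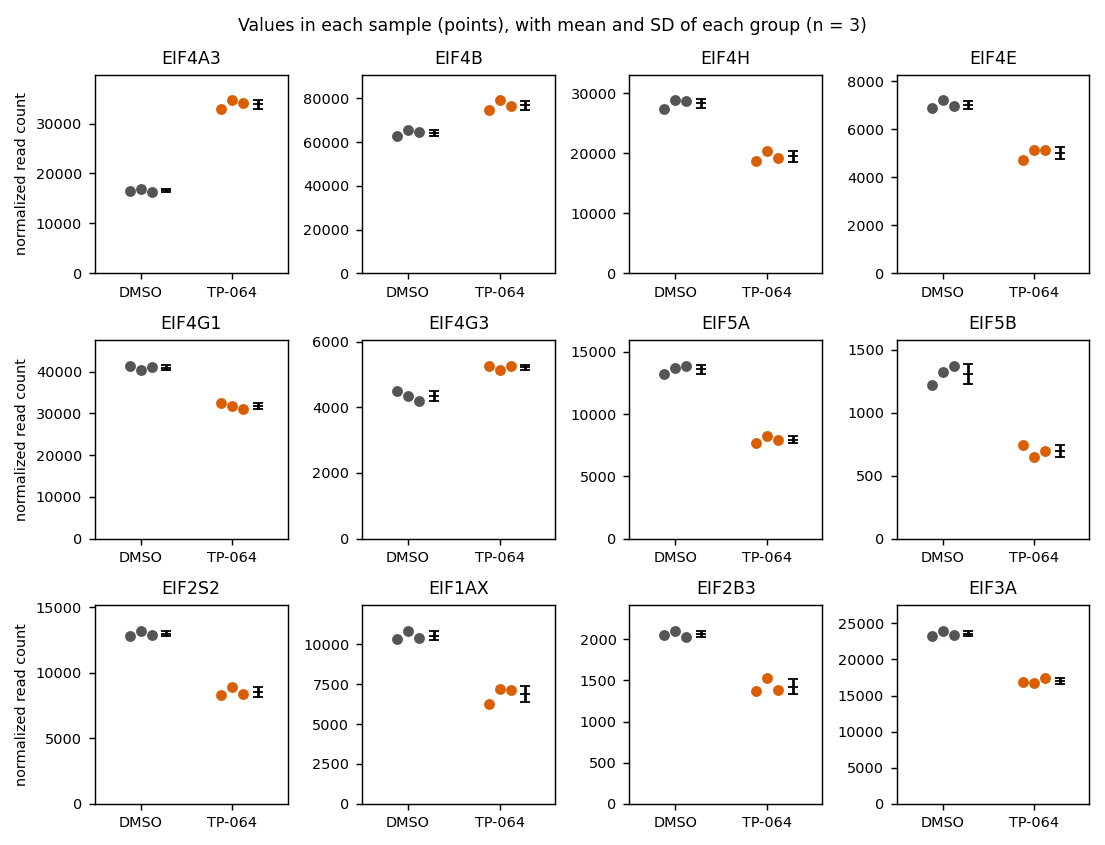
Normalized read count (vertical axis, from 0) in each of the 3 DMSO and 3 TP-064 samples for 12 factor genes, with the mean and SD of each group beside the points. EIF4A3, EIF4B and EIF4G3 are higher in every TP-064 sample, and the other 9 genes are lower in every TP-064 sample.

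The eIF3 complex is the largest factor, and its 14 genes moved in both directions, with 6 lower, 4 higher and 4 not called. These shares, 42.9% lower and 28.6% higher, stand beside 33.3% and 31.9% of all tested genes. EIF3A, the large scaffold subunit, fell the most, with 16938, 16718 and 17428 normalized reads in the TP-064 samples and 23312, 23963 and 23379 in the DMSO samples. Its groups were clearly apart, at a difference of -0.47 (SE 0.033, limma adjusted p = 8.55e-09). EIF3F rose the most, with 30010.3, 31487 and 29729 normalized reads in the TP-064 samples and 25419, 25251 and 25299 in the DMSO samples. The treated samples were all higher, by 0.26 (SE 0.034, limma adjusted p = 7.58e-06). EIF3H had 15844, 17488 and 16195 normalized reads in the TP-064 samples and 16136, 16707 and 16426 in the DMSO samples. Those values overlapped, with an interval from -0.0775 to 0.0903.

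The subunits, EIF3J and EIF3CL apart, were also grouped by whether they belong to the stable eIF3 core of budding yeast. That grouping was made after the values were seen and given no test. Budding yeast has counterparts of EIF3A, EIF3B, EIF3C, EIF3G and EIF3I as its stable core. Of these 5 genes 4 fell and none rose, with log2 fold changes from -0.47 for EIF3A to -0.09 for EIF3G, which missed the threshold (limma adjusted p = 0.0545). EIF3B fell by 0.39, EIF3C by 0.34 and EIF3I by 0.22. EIF3G crossed the threshold as lower without TP-064 replicate 2, at -0.13, with a filter at 1 CPM and with the replicate block (both -0.09), and had the opposite sign with library size scaling (0.0328). The 7 subunits that budding yeast lacks (EIF3D, EIF3E, EIF3F, EIF3H, EIF3K, EIF3L and EIF3M) included 4 that rose and 1 that fell, with a median of 0.0770. EIF3D, which can itself bind the cap of some mRNAs, rose by 0.17 (SE 0.042) and EIF3E by 0.14 (SE 0.041). EIF3E lost its call without DMSO replicate 3 (0.11). EIF3L rose by 0.077 (limma adjusted p = 0.0453). It shares 41.1% of its exon length with another annotated gene on its strand, and that call was lost without any 1 of TP-064 replicates 2 and 3 and DMSO replicates 1, 2 and 3 (0.0649 to 0.0795). EIF3M fell by 0.20, a call lost with library size scaling (-0.0767). With that scaling EIF3H (0.13) and EIF3K (0.13) were called higher as well. EIF3J, a loosely bound subunit that helps to release the ribosome, fell by 0.41. EIF3C and EIF3CL are near-identical copies on chromosome 16, so their low counts (means of 694 after TP-064 and 877 after DMSO for EIF3C and 103 after TP-064 and 117 after DMSO for EIF3CL) are uncertain.

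Per kilobase of exon, eIF3 subunit mRNAs spanned a wide range in DMSO. EIF3I had the highest level, at 8329 ± 237 (SD, n = 3) normalized reads per kilobase, followed by EIF3D at 5003 ± 128 and EIF3E at 4536 ± 157. Per kilobase, EIF3D was higher than EIF3E in DMSO by more than either SD. This order depends on the length used, the union of a gene's exons, which is 1725 bases for EIF3I and 6005 for EIF3E. Before division by length the DMSO means were 14368 normalized reads for EIF3I, 20362 for EIF3D and 27237 for EIF3E, the reverse order. EIF3G, EIF3K and EIF3L stood at 2931 ± 48.2, 2832 ± 52.7 and 2812 ± 14.8, and the last 2 did not differ beyond their SD. EIF3A fell from 3317 ± 50.4 to 2398 ± 51.2 per kilobase, a level below those of EIF3F, EIF3H, EIF3K and EIF3L after TP-064.

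**Figure D3:**
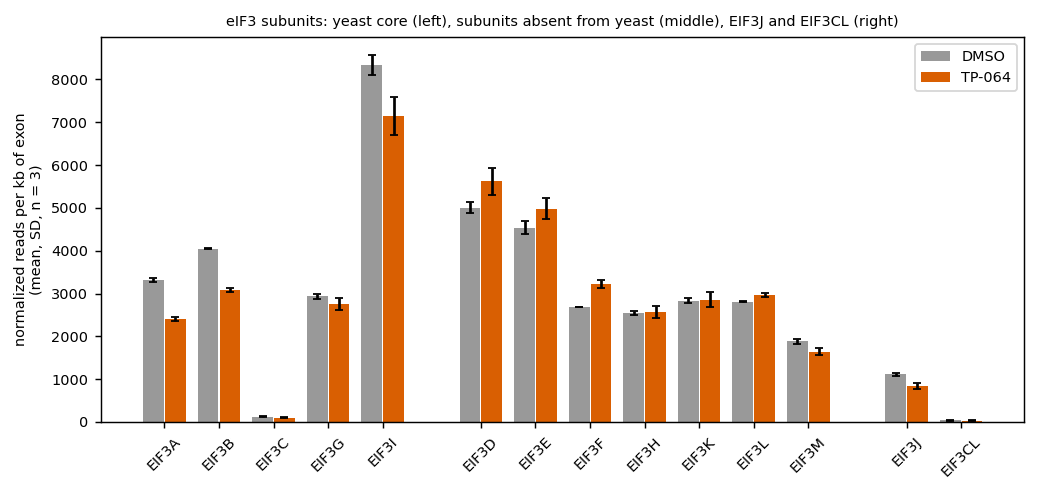
Normalized reads per kilobase of exon (vertical axis, mean with SD, n = 3) for the 14 eIF3 genes in DMSO and TP-064. EIF3A and EIF3B are lower after TP-064, and EIF3D, EIF3E and EIF3F are higher.

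All 3 analysed cap-binding genes fell, beside 33.3% of all tested genes, though the smallest of these falls lost its call with library size scaling. EIF4E, the main cap-binding protein and the target of the eIF4E-binding proteins, had 4716, 5151 and 5137 normalized reads in the TP-064 samples and 6894, 7199.6 and 6960.2 in the DMSO samples. The groups were separate, with a fall of 0.49 (SE 0.04, limma adjusted p = 4.36e-08). EIF4E3, an atypical relative at a far lower count, had 209, 195 and 228 normalized reads in the TP-064 samples and 368, 396 and 395 in the DMSO samples. It fell by 0.87 (SE 0.085, limma adjusted p = 3.21e-07), to 0.546 of its DMSO level. EIF4E2, which binds caps and represses translation, had 2997, 2998 and 3011 normalized reads in the TP-064 samples and 3335, 3549 and 3487 in the DMSO samples, a difference of -0.20 (limma adjusted p = 0.000198) that became -0.0802 and was not called with library size scaling. Of the exon length of EIF4E2, 24.2% overlaps exons on the other strand, the highest share among the 22 factor genes with any such overlap. Relative to EIF4E, EIF4E2 gained 0.29 on the log2 scale and EIF4E3 lost 0.38.

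The scaffold genes moved apart. EIF4G1, the main scaffold that bridges the cap and the ribosome, had 32401, 31836 and 31009 normalized reads in the TP-064 samples and 41400.2, 40277 and 41144 in the DMSO samples. EIF4G3, its close relative with the same function, had 5266, 5122 and 5248 normalized reads in the TP-064 samples and 4481, 4339 and 4198 in the DMSO samples. EIF4G1 was lower in each treated sample, by 0.37 (SE 0.034, limma adjusted p = 2.01e-07), and EIF4G3 was higher in each, by 0.26 (SE 0.036, limma adjusted p = 1.17e-05). EIF4G2, a scaffold that lacks the eIF4E-binding part and serves cap-independent initiation, had 41003, 41126 and 41626 normalized reads in the TP-064 samples and 43036, 43449 and 43627 in the DMSO samples. Its groups did not overlap, yet the difference of -0.0723 missed the threshold (limma adjusted p = 0.0684). It crossed it as lower in DESeq2 (-0.0678), with the replicate block (-0.0723) and without TP-064 replicate 2 (-0.0701), and its sign changed with library size scaling (0.0505). Per kilobase of exon, EIF4G1 stood at 4958 ± 71.3 in DMSO and 3845 ± 84.8 after TP-064, and EIF4G3 at 452 ± 14.7 and 543 ± 8.21 (SD, n = 3 each).

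Helicase genes held the largest rise of the family. EIF4A3, an RNA helicase related to eIF4A1 and best known as the core of the exon junction complex on spliced mRNA, had 32841, 34619 and 34081 normalized reads in the TP-064 samples and 16587, 16932 and 16318 in the DMSO samples. The lowest treated sample was well above the highest control, and the gene rose by 1.03 (SE 0.034, limma adjusted p = 1.56e-12), or 2.04-fold. It was the only factor gene called at 2-fold or more, where 13.1% of all tested genes were and 6.51% were higher, and its log2 fold change lay between 1.01 and 1.05 with any 1 sample left out. Without DMSO replicate 1 a second gene, EIF4EBP3, also reached 2-fold. EIF4A3 lies on chromosome 17 from 80135214 to 80147183 on the minus strand. Its level per kilobase went from 3345 ± 62 to 6814 ± 184 (SD, n = 3 each), from place 13 to place 4 among the 50 genes.

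Of the helicases that act in initiation itself, EIF4A2 was not called and EIF4A1 fell. EIF4A2 had 15719, 16107 and 15309.5 normalized reads in the TP-064 samples and 15777, 15742 and 15768 in the DMSO samples. These groups overlapped, with an interval from -0.0751 to 0.0653, although with library size scaling the gene passed as higher at 0.12. EIF4A1, its close relative with the same activity, had 553, 543 and 574 normalized reads in the TP-064 samples and 669.6, 669 and 712 in the DMSO samples, a fall of 0.30 (SE 0.058, limma adjusted p = 0.000381). Per kilobase of exon, EIF4A2 stood at 2570.1 ± 2.94 in DMSO and EIF4A1 at 129 ± 4.59 (SD, n = 3 each). The EIF4A1 counts are uncertain: 48.6% of its exon length is shared with other annotated genes on the same strand, among them the readthrough gene SENP3-EIF4A1, whose own row averaged 7.66 and 12.5 normalized reads after TP-064 and DMSO. The activators of the helicase went opposite ways. EIF4B had 74765, 78976 and 76429 normalized reads in the TP-064 samples and 62838, 65519 and 64442 in the DMSO samples, a rise of 0.26 (SE 0.038, limma adjusted p = 2.79e-05). EIF4H, which shares the activity of eIF4B, had 18764, 20452 and 19235 normalized reads in the TP-064 samples and 27446, 28786 and 28723 in the DMSO samples, a fall of 0.54 (SE 0.039, limma adjusted p = 1.02e-08). In neither gene did the groups overlap. EIF4B was the factor mRNA with the highest level per kilobase in both groups, at 10457 ± 219 in DMSO and 12483 ± 345 after TP-064, and EIF4H went from place 3 to place 5.

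Stretches upstream of 3 of these genes are shown because they differ in direction: EIF4A3 rose the most, EIF4H fell while its partner EIF4B rose, and EIF5B had the largest fall in the family. They are RefSeq promoter sequences on GRCh38.p14, taken from the 250 bases before the start and ended where GENCODE places the gene's first exon, each 5′ to 3′ on the gene's strand, with the letters of the E-box CACGTG in capitals. The E-box is the motif bound by MYC with MAX and by related factors.
EIF4A3 (chr17:80147184-80147378, minus strand): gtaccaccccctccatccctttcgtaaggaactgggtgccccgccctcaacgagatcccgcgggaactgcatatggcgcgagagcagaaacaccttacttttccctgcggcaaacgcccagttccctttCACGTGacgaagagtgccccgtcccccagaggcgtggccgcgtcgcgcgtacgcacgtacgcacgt
EIF4H (chr7:74174106-74174244, plus strand): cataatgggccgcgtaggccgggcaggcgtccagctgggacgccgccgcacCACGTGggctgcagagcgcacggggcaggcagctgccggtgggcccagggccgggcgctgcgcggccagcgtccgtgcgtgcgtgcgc
EIF5B (chr2:99337139-99337352, plus strand): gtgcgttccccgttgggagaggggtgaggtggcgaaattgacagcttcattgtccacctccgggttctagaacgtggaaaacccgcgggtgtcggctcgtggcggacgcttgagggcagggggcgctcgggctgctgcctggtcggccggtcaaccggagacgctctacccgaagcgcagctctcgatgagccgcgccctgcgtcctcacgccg
EIF4A3 has 1 E-box that begins 121 bases before the RefSeq start, EIF4H has 1 that begins 199 bases before it, and the EIF5B stretch has no match. RefSeq windows were matched for 42 of the 50 factor genes, and both strands were searched (this motif reads alike on both). CACGTG was found for 11 of those 42 genes (26.2%), against 7.73% of all 27305 genes with a window and 11.2% of the 10205 tested genes with one. Of the 11 genes, 5 were among the 26 matched genes that fell, 3 among the 6 that rose (EIF4A3, EIF4B and EIF3F) and 3 among the 10 not called. The cyclic AMP response element TGACGTCA and the E2F motifs TTTGGCGC and TTTCCCGC had no match in the factor windows, where 2.03%, 0.68% and 1.70% of all genes had one. A match is a description of these letters and not evidence of binding.

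Genes of the cap-binding inhibitors were divided. EIF4EBP1, which sequesters eIF4E unless mTOR phosphorylates it, had 1961, 2013 and 1751 normalized reads in the TP-064 samples and 2192, 2259 and 2259 in the DMSO samples. It was lower in each treated sample, by 0.23 (SE 0.05, limma adjusted p = 0.000883). EIF4EBP2, with the same function, had 5444, 5199 and 5195 normalized reads in the TP-064 samples and 5170.1, 5358 and 5147 in the DMSO samples. Those groups overlapped, with an interval from -0.0614 to 0.0908, and with library size scaling the gene passed as higher at 0.14. EIF4ENIF1, the protein that carries eIF4E into the nucleus and into mRNA granules, had 1652, 1632 and 1678 normalized reads in the TP-064 samples and 1420.2, 1413 and 1416 in the DMSO samples and rose by 0.22 (SE 0.041, limma adjusted p = 0.000192), with no overlap. EIF4EBP3 had few reads, with 19.2, 17.8 and 11.2 normalized reads in the TP-064 samples and 16.6, 7.95 and 3.24 in the DMSO samples. Its groups overlapped, and it was not called at 0.93 (limma adjusted p = 0.101). Without DMSO replicate 1 it passed, at 1.43. Its exons are shared for 73.4% of their length with the readthrough gene ANKHD1-EIF4EBP3, so its reads are uncertain.

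Among the factors of subunit joining and later steps, 3 of 5 genes fell (60%, beside 33.3% of all tested genes) and none rose. EIF5B, the GTPase that joins the large ribosomal subunit, had 746, 645 and 695 normalized reads in the TP-064 samples and 1216, 1325 and 1372 in the DMSO samples. Every treated sample was below every control, and the gene fell by 0.91 (SE 0.063, limma adjusted p = 6.96e-09), to 0.533 of its DMSO level. It lies on the plus strand of chromosome 2, from 99337353 to 99401326, and 10.8% of its exon length overlaps exons of REV1 on the other strand. REV1 itself changed by -0.47 (SE 0.04, limma adjusted p = 1.09e-07), and its part in the EIF5B value was not tested. EIF5A, the hypusine-bearing factor that eases elongation and termination, had 7685, 8283 and 7891 normalized reads in the TP-064 samples and 13237, 13687 and 13899.9 in the DMSO samples. It fell by 0.78 (SE 0.037, limma adjusted p = 8.23e-11), with no overlap, and moved from place 9 to place 17 of the family per kilobase. EIF5AL1, a near-identical copy with uncertain reads at means of 25.9 after TP-064 and 47.9 after DMSO, fell by 0.84. EIF5A2, a relative that also carries hypusine, had 578, 630.1 and 651 normalized reads in the TP-064 samples and 571, 583 and 569 in the DMSO samples. Its groups overlapped, and it was not called at 0.11 (limma adjusted p = 0.14). It passed as higher without TP-064 replicate 1 (0.16) and with library size scaling (0.23). EIF6, which keeps the large subunit from joining too early, had 4812, 5309.7 and 4789 normalized reads in the TP-064 samples and 4922, 5069 and 5085 in the DMSO samples and overlapped between groups, with an interval from -0.11 to 0.0726. It shares 17.4% of its exon length with another gene on its strand. With library size scaling EIF6 was called higher, at 0.11.

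Ratios within 8 pairs of related genes were taken in each sample, where the scaling of the library cancels apart from the pseudocount. In 7 of the 8 pairs the ratio of every TP-064 sample lay on 1 side of every DMSO sample. Such separation was common in these data: 69.1% of all tested single genes did not overlap. The share among other pairs of genes was not determined, so whether the count is particular to related genes cannot be told. EIF5A2 gained the most on its relative: its log2 ratio to EIF5A was -3.73, -3.71 and -3.60 in the TP-064 samples and -4.53, -4.55 and -4.61 in the DMSO samples, a difference of 0.88. EIF4G3 over EIF4G1 followed at 0.63, with -2.62, -2.64 and -2.56 against -3.21, -3.21 and -3.29. EIF4G2 over EIF4G1 and EIF4A2 over EIF4A1 each gained 0.29, and EIF4EBP2 over EIF4EBP1 gained 0.25. A two-sided exact permutation test gave p = 0.1 for each of these 7 pairs, the smallest value that 3 against 3 samples allow, and 0.114 after Benjamini-Hochberg adjustment over the 8 pairs. For EIF1B over EIF1 the exact p was 0.3. None can reach a threshold of 0.05 in this design.

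**Figure D4:**
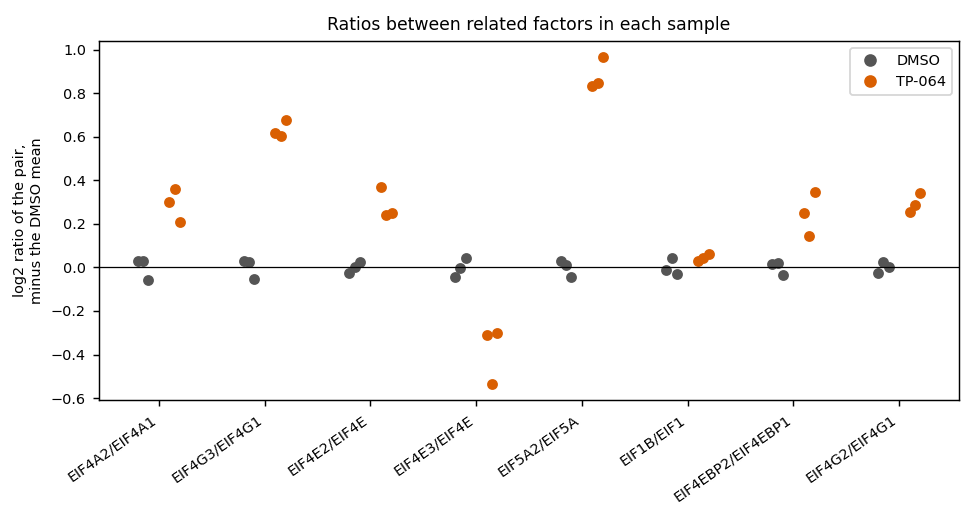
Log2 ratio of 8 pairs of related factors in each sample (vertical axis, minus the DMSO mean of the pair). The TP-064 points lie apart from the DMSO points for each pair but EIF1B over EIF1, and EIF5A2 over EIF5A shows the largest shift, at 0.88.

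The genes that regulate or assist the factors, listed as 44 partners, had 19 lower, 12 higher and 13 not called, with a median log2 fold change of -0.0724. That is 43.2% lower and 27.3% higher, beside 33.3% and 31.9% of all tested genes. With library size scaling the balance of directions turned, to 15 lower (34.1%) and 21 higher (47.7%) with a median of 0.0504. All tested genes turned the same way, to 25.9% lower and 41.5% higher with a median of 0.13. With TMM scaling 19 partners were lower and 15 higher, beside 31.6% and 34.1% of all tested genes. Without TP-064 replicate 3, 29 partners in place of 31 were called. Their share called, 70.5%, stands beside the 65.1% of all tested genes. Among the regulators, PDCD4 rose the most. It is an inhibitor that binds eIF4A and blocks its helicase, and it had 7237, 7327 and 7857 normalized reads in the TP-064 samples and 3225, 3294 and 3144 in the DMSO samples, a rise of 1.21 (SE 0.039, limma adjusted p = 1e-12). CYFIP1, which binds eIF4E and represses translation of bound mRNAs, had 337, 352 and 289 normalized reads in the TP-064 samples and 162, 125 and 148 in the DMSO samples, a rise of 1.17 (SE 0.11). PAIP2B, an inhibitor of poly(A)-binding protein, had 926, 969 and 924 normalized reads in the TP-064 samples and 550.2, 488 and 562 in the DMSO samples, a rise of 0.82 (SE 0.063). In all 3 the treated samples lay above the controls. PABPC1, the poly(A)-binding protein, fell by 0.25.

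Of the 4 partner genes with the largest falls, 3 encode kinases, and the other kinases of the list fell less, were not called or rose. EIF2AK2, the kinase PKR that phosphorylates eIF2 alpha in response to double-stranded RNA, had 1204, 1186 and 1275 normalized reads in the TP-064 samples and 2076, 2055 and 2136 in the DMSO samples, a fall of 0.77 (SE 0.044). MKNK2, a kinase that phosphorylates eIF4E, had 5916, 5786 and 5399.7 normalized reads in the TP-064 samples and 8779, 8922 and 8910.1 in the DMSO samples and fell by 0.64 (SE 0.038). RPS6KB1, the S6 kinase below mTOR, had 3692, 3953 and 3870.3 normalized reads in the TP-064 samples and 5851, 5781 and 5814 in the DMSO samples and fell by 0.60 (SE 0.036). None of these groups overlapped. MKNK1, the relative of MKNK2, was not called (0.0718) and passed as higher with library size scaling (0.19). RPS6KB2, the relative of RPS6KB1, fell by 0.16, a call lost with that scaling (-0.0337). Of the other eIF2 alpha kinases, EIF2AK4, the sensor of amino acid shortage, rose by 0.20. EIF2AK1 (-0.0658) and EIF2AK3 (-0.0367) were not called, and with library size scaling both signs turned, to 0.0569 and to 0.086, the latter called higher. MTOR (0.0626) and RPTOR (0.0609), the kinase and a scaffold of mTOR complex 1, were not called either. Both passed as higher with TMM scaling (0.0908 and 0.089) and with library size scaling (0.19 and 0.18).

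Of 7 genes that help scanning and recycling, 6 fell and none rose, beside the 33.3% of all tested genes that fell. With library size scaling 4 were lower and 1 higher: the helicase genes DHX29 (-0.20, then -0.0774) and DDX3X (-0.19, then -0.0631) lost their calls, and BZW2 (0.025, then 0.15) was called higher. ABCE1, which splits ribosomes after termination, fell by 0.42, and MCTS1 and DENR, which form a complex that acts in reinitiation, fell by 0.48 and 0.41. DHPS, the first of the 2 enzymes that make hypusine on eIF5A, fell by 0.35, and DOHH, the other, was not called (-0.11). The list of elongation and termination genes was split, with 4 lower and 4 higher of 8, beside 33.3% and 31.9% of all tested genes. It also holds 2 genes that are not themselves such factors, EEF1E1 among the lower and EEF2K among the higher. EEF1E1, a small protein of the tRNA synthetase complex, had 167, 177 and 204 normalized reads in the TP-064 samples and 368, 345 and 314 in the DMSO samples and fell by 0.90 (SE 0.098). EEF1A1, which brings aminoacyl-tRNA to the ribosome, had 441420.2, 492601 and 460633 normalized reads in the TP-064 samples and 342889, 365179 and 363008 in the DMSO samples and rose by 0.38 (SE 0.054), although processed copies of this gene make its count uncertain. EEF2, the translocase, rose by 0.38, and so did EEF2K, the kinase that inhibits it, by 0.26. The termination factors ETF1 and GSPT1 fell by 0.37 and 0.28.

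**Figure D5:**
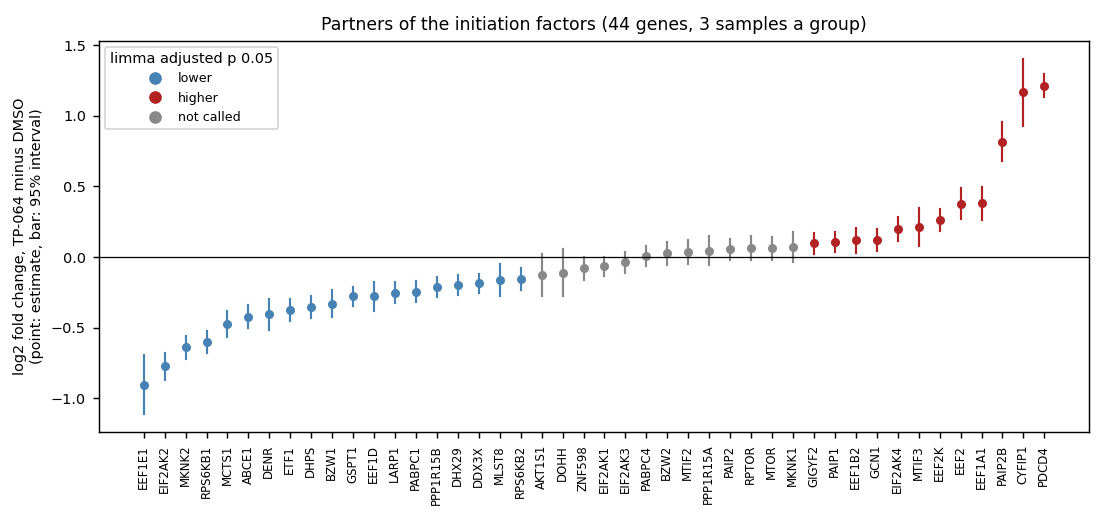
Log2 fold change of the 44 partner genes (vertical axis, TP-064 minus DMSO, 3 samples a group) with its 95% confidence interval, in order of size. PDCD4, CYFIP1 and PAIP2B stand above the other risers at 1.21, 1.17 and 0.82, and EEF1E1 is lowest at -0.90.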

How the data were processed

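RNA sequencing of 6 samples was analysed. The submitters' processing notes name TopHat2 2.0.10, HTSeq 0.6.0, DESeq 1.18.0 and hg38. No source used here gives the annotation release, the strand setting or row filters. The table the authors deposited holds a normalized signal for each gene and sample, equal to a read count over a size factor. All values were whole multiples of 1 step per column (100% within 0.001). For replicate 2 of both groups that step is so close to 1 that whole reads rest on the decimals, which limits the count tests. As the values are normalized, limma 3.58.1 (R 4.3.3, trend option) was fitted on log2(value + 1) without a replicate block. It tested the 16048 genes with a mean of at least 10, left out 2230, and adjusted p-values over all genes tested (Benjamini-Hochberg, two-sided, threshold 0.05). A positive difference means higher after TP-064, and the scale understates changes of low genes. The script was tested on simulated data. Alternatives were pseudocounts of 0.5 and 5, no filter or 1 CPM in 3 samples, library size and TMM scaling, edgeR 4.0.16, DESeq2 1.42.0, a replicate block, each sample left out, a threshold of 0.01 and a null of 1.2-fold. Replicates differed by more than sampling noise (chi-square 3.21 to 8.10 per degree of freedom). GENCODE release 29 (GRCh38) gave symbols and positions for 18214 of 18278 genes, matched on the identifier without version. Levels per kilobase use the union of a gene's exons. Values in every sample are given for the called gene with the largest rise and fall in each role, for 8 related pairs, for the least changed overlapping gene of each role not called and for the 4 most changed partners in each direction. The sample values of EIF4EBP3 were added after they were seen. IMPACT and EEF1G of the partner list were not analysed here. Another B cell marker of the list is not reported here. Members, lists and rules were chosen with earlier results of these data known.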

Additional observations from a re-analysis of the deposited data

How the results depend on the processing

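Counts of called factor genes stayed within 1.5 times under other pseudocounts, filters, TMM, edgeR, DESeq2 and a threshold of 0.01. Against a 1.2-fold null, calls fell to 17 factor genes (16 lower, 1 higher), 12 partners and 5592 of all genes, by construction of that test. Library size scaling gave 15 factor genes higher, a factor median of -0.0987 and a partner median of 0.0504, the opposite sign, with 21 partners higher and 15 lower. Under it 41.5% of all tested genes were higher and 25.9% lower. With 1 sample left out, factor genes called ran from 35 to 38 and genes changed at least 2-fold from 1 to 2, the second being EIF4EBP3 without DMSO replicate 1. With the replicate block 39 factor genes were called, 31 of them lower. Same-numbered samples correlated at -0.0859, 0.0659 and -0.0793 in their deviations, and of the TP-064 samples only replicate 2 correlated best with its own number. With 3 samples a group these values cannot decide whether the numbers mark a shared culture or day. Signs of uncalled genes near 0 changed: with library size scaling EIF3G was 0.0328, EIF2B4 0.11, EIF4A2 0.12 (called higher), EIF4G2 0.0505 and EIF6 0.11; with TMM EIF2B4 was 0.0131, EIF4A2 0.0232 and EIF6 0.0108; in edgeR EIF2B4 was 0.0155, EIF4A2 0.0234 and EIF6 0.0116. With 1 sample left out the ranges were -0.0076 to 0.0330 for EIF4EBP2, -0.0358 to 0.0354 for EIF3H, -0.0423 to 0.0357 for EIF3K, -0.0594 to 0.0181 for EIF2B4, -0.0230 to 0.0136 for EIF4A2, -0.0134 to 0.0295 for EIF2D, -0.0447 to 0.33 for EIF2S3B and -0.0659 to 0.0085 for EIF6. With the longest coding transcript as length, 7 of the 10 highest factor genes per kilobase in DMSO stayed among the 10. A change of scaling multiplies all values of a sample by the same factor, so it moves all but low genes nearly together. The median of all tested genes went from 0.0079 to 0.13 with library size scaling and to 0.0359 with TMM. The cause of the other shifts was not tested. Depth limits EIF4EBP3 (means of 16.1 normalized reads after TP-064 and 9.27 after DMSO) and EIF5AL1 (25.9 and 47.9).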
